A study of Homo sapiens with 12 samples.

Results

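The genes considered were 51 genes of DNA replication and S phase, measured in 2 human breast cancer cell lines after knockdown of PHF19. They were chosen by name as known components of origin licensing, the replication fork, nucleotide supply, replication-coupled chromatin assembly and the E2F program. Earlier results of these data were known when they were chosen. All 51 were found among the 29972 genes of each line's table. Both lines are triple-negative: MDA-MB-436, and BoM-1833, a derivative of the MDA-MB-231 line with growth in bone. Cells of all groups were kept in DMEM with serum and reverse transfected with small interfering RNA (siRNA) at 5 nM in total, and RNA was taken 72 h later. The control groups (siNT) received a pool of non-targeting siRNAs from Dharmacon, and the treated groups (siPHF19) received 2 Silencer Select siRNAs against PHF19 from ThermoFisher mixed in equal parts, so that target and supplier cannot be told apart. The labels name no mock-transfected or untransfected group, and the knockdown was transient. Polyadenylated RNA was sequenced in 3 libraries for each of the 4 groups, 12 in all. The labels do not say that the libraries of a group came from separate cultures, so the p-values measure only the spread between these samples.

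Before S phase, replication origins are bound by the origin recognition complex, and CDC6 and CDT1 load the ring of MCM proteins that later unwinds DNA. The DBF4-dependent kinase CDC7, CDC45 and the GINS complex turn that ring into an active helicase, after which primase and the replicative polymerases copy both strands on the sliding clamp PCNA. Most of these genes are transcribed in late G1 by E2F factors, which the retinoblastoma protein restrains, and the set is therefore widely read as a sign of proliferation. PHF19 is an accessory subunit of PRC2, the polycomb complex that methylates histone H3 and represses genes.

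The changes were small and uneven across the members. In MDA-MB-436, 17 of the 51 genes fell (33.3%, against 11.5% of all genes tested) and 4 rose (7.84%, against 10.5%) after PHF19 knockdown. Log2 fold changes there lay between -0.53 and 0.43. In BoM-1833, 4 rose (7.84%, against 5.21% of all genes tested) and 0 fell (5.72% of all genes fell). RRM2, the small subunit of ribonucleotide reductase, E2F8, a repressor of the E2F family, and CCNE2, which encodes cyclin E, rose in both lines. Genes of origin licensing, the MCM helicase, the polymerases and primase made up 9 of the 17 that fell in MDA-MB-436. Origin licensing with the MCM helicase holds 10 of the 51 members, and the polymerases with primase hold 8.

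Depth ranged from 15.2 to 24.0 M reads assigned to genes for MDA-MB-436, against 13.7 to 21.3 M for BoM-1833. In BoM-1833 every siPHF19 library (13.7 to 16.6 M) was shallower than every siNT library (17.6 to 21.3 M). In MDA-MB-436 the groups overlapped (16.9 to 22.3 M for siPHF19, 15.2 to 24.0 M for siNT). Values per library below are normalized counts, that is reads divided by the size factor of the library. PHF19 itself fell from 3353 ± 411 to 327 ± 12.8 normalized counts in MDA-MB-436 (SD, n = 3), and in BoM-1833 from 1688 ± 20.9 to 185 ± 14.2 (SD, n = 3). The authors' deposited tables gave log2 fold changes of -3.36 and -3.19. All 7 markers of mesenchymal-type breast tumour lines (VIM, CAV1, CD44, AXL, MSN, ZEB1 and FN1) had means above 100 normalized counts in every group. The hormone receptor genes ESR1 and PGR were at most 3.97 normalized counts in any library, and the T cell marker CD3E was at 0 in every siNT library. Other luminal and leukocyte markers were not silent. ERBB2 was at 932 to 1179 in all libraries, and in BoM-1833 KRT19 was at 5228 to 6261 and GATA3 at 131 to 164. CD14 was at 83.9 to 337 in all libraries. In bulk samples, fewer cells in S phase and less replication RNA per cell cannot be told apart.

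Promoters were read for the members because most are known E2F targets. RefSeq (GRCh38.p14) gave 60 windows, each from 250 bases before to 50 bases after a start site, for 45 of the 51 genes; E2F8, POLD3, GINS4, CCNE2, MCM4 and MCM5 had none. The E2F words searched were TTTCCCGC, TTTCGCGC, TTTGCCGC and TTTGGCGC, on both strands. At least 1 of these 4 words stood in 25 of the 60 windows (41.7%), against 3.31% of all 35116 windows, and in 24 of the 45 genes (53.3%), against 3.99% of all 27305 genes. CCAAT, the word bound by the factor NF-Y, on both strands, stood in 50% of the members' windows against 34.6% of all. The word TTTGAA (CHR), common in promoters of mitotic genes, stood in 6.67% against 15.2%. These shares are a description. The members were chosen in part as genes of the E2F program, and the windows of all genes were not matched to theirs for base composition. A CCAAT match can share bases with an E2F word, and did in 1 of the members' windows, that of MCM7. Printed are 4 of the members described with their values per library, those with the most E2F words among them (ties in alphabetical order); MCM6, whose window holds 4 words, and CDC7, DUT, E2F1 and MCM2, with 2 each, are not printed. The windows show where the E2F words lie in MCM3 and MCM7, whose responses differed between the lines, in CLSPN, which fell in MDA-MB-436, and in GINS1, which was higher in every siPHF19 library of both lines without passing the test. Capitals mark the E2F words on either strand, and each sequence is written 5′ to 3′ in the direction of the gene. The MCM3 window (chr6:52284693-52284992, minus strand) holds 2 words, beginning at -174 and -4 relative to the start site. The MCM7 window (chr7:100101348-100101647, minus strand), 1 of 3 for this gene, also holds 2, beginning at -187 and -9. The words of CLSPN (chr1:35769929-35770228, minus strand) and GINS1 (chr20:25407423-25407722, plus strand) begin at -5 and 5.
MCM3: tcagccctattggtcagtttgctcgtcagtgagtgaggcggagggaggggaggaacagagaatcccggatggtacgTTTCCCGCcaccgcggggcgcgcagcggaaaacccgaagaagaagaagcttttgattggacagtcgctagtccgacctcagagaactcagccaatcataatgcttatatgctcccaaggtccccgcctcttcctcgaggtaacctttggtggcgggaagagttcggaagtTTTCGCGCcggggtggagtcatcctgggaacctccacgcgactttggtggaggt
MCM7: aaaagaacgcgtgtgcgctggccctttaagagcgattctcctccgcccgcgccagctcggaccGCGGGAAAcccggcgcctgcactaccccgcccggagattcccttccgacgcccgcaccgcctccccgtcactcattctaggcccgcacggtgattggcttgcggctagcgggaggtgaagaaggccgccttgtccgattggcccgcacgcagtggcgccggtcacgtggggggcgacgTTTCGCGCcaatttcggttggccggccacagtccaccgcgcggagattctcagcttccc
CLSPN: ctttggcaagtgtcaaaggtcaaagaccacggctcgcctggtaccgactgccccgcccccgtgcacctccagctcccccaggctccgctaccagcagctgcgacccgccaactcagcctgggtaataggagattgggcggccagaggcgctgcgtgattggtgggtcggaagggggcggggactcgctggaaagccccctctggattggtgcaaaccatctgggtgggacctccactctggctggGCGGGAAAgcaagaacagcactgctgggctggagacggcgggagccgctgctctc
GINS1: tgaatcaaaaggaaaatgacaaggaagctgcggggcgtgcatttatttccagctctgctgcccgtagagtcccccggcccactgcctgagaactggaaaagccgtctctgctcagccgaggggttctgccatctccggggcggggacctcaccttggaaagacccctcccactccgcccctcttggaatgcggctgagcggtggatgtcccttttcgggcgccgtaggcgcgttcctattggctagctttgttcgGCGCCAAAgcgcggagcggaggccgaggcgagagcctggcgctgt
The words were not more common among the members that fell. They stood in 8 of the 16 genes with a window that fell in MDA-MB-436 (50%) and in 16 of the 26 called in neither line (61.5%). None of the 3 genes with a window that rose in either line (RRM2, DBF4 and ASF1B) held 1 of these words in the window searched.

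Counted over all 51 genes, more members fell than rose in MDA-MB-436. Calls were those with an adjusted p under 0.05 from the authors' deposited table (DESeq2 Wald test, adjusted by Benjamini-Hochberg over all genes tested). Since the members were chosen with earlier results of these data known, their shares are a description and not a test. The 17 genes called lower were 33.3% of the members, whereas 11.5% of the 14243 genes tested were called lower. The 4 called higher were 7.84% of the members, against 10.5% of all genes. In 30 of the 51 members every siPHF19 library lay below every siNT library, against 21.1% of all genes. In 5 of the 51 every siPHF19 library lay above, also against 21.1% of all genes. The median log2 fold change was -0.17 over the members and -0.0022 over all genes tested, and 39 members were below 0. The count of members called, 21 in either direction, depended on the libraries: it was 10 without siNT replicate 2 or without siPHF19 replicate 3, 8 without siPHF19 replicate 1 or without siPHF19 replicate 2, and 25 without siNT replicate 3, while the median stayed between -0.18 and -0.15. Calls over all genes went from 3143 to 1810 without siNT replicate 2 and 1891 without siPHF19 replicate 3. They numbered 1767 without siPHF19 replicate 1, 1784 without siPHF19 replicate 2 and 3801 without siNT replicate 3. Total-read scaling ended the calls of MCM4, MCM6, RFC2, CHAF1A and UHRF1, adjustment without a low-count filter those of MCM6, RFC2, CHAF1A and UHRF1, and edgeR those of RFC2 and CHAF1A.

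In BoM-1833 the members were spread around 0. The 4 called higher (RRM2, E2F8, CCNE2 and ASF1B) were 7.84% of the members, against 5.21% of the 12906 genes tested. None was called lower by DESeq2 or by edgeR, against 5.72% of all genes. At an unadjusted p under 0.05 in DESeq2, 4 were lower and 6 were higher. Every siPHF19 library lay below every siNT library in 6 of the 51 members (against 15.7% of all genes) and above in 8 of the 51 (against 15.3% of all genes). The median log2 fold change was 0.056, against -0.0035 over all genes tested, and 31 members were above 0. Without siNT replicate 1, 9 members were called, 7 higher and 2 lower, and without siPHF19 replicate 2 only RRM2 was called. Calls over all genes shifted in the same directions, from 1411 to 2046 without siNT replicate 1 and to 746 without siPHF19 replicate 2.

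**Figure D1:**
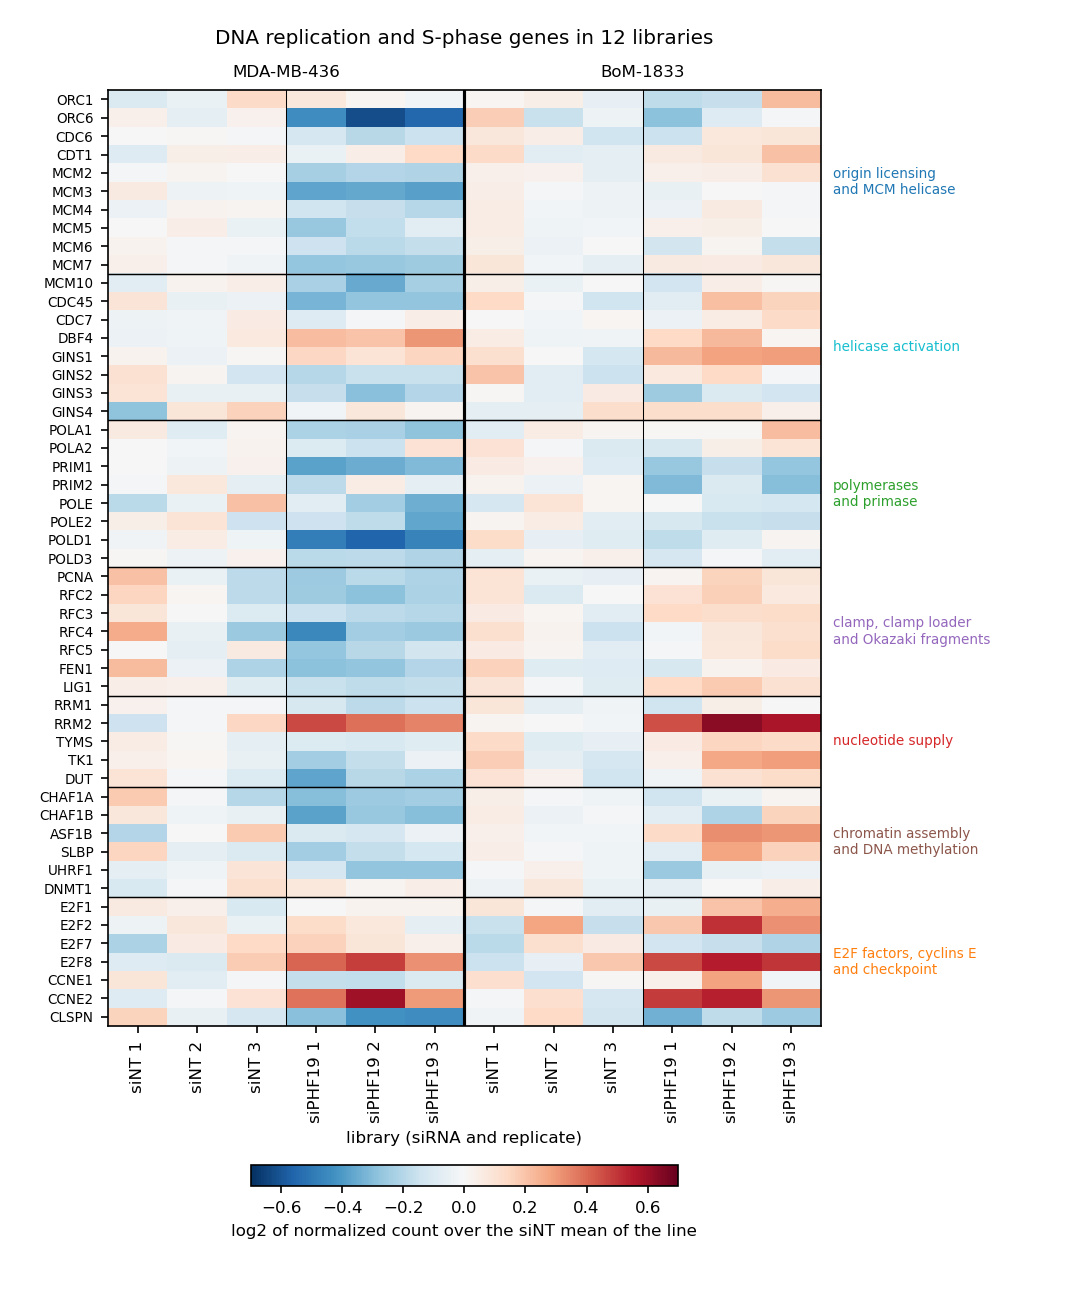
Heat map of the 51 genes (vertical axis, ordered by role) in the 12 libraries (horizontal axis, siRNA and replicate number, MDA-MB-436 on the left and BoM-1833 on the right). Colour is the log2 of a library's normalized count over the siNT mean of its line, on a scale from -0.7 to 0.7; the MDA-MB-436 siPHF19 libraries are blue for most genes, and RRM2, E2F8 and CCNE2 are red in the siPHF19 libraries of both lines.

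The members also took a smaller share of the reads in MDA-MB-436. The share was 0.517, 0.520 and 0.521% in the siNT libraries and 0.492, 0.488 and 0.488% in the siPHF19 libraries, so the groups did not overlap. The means were 0.519 ± 0.0021% and 0.490 ± 0.0026% (SD, n = 3). In BoM-1833 the siNT libraries gave 0.430, 0.424 and 0.406% and the siPHF19 libraries 0.424, 0.452 and 0.450%, which overlapped. RRM2 rose while most called members fell in MDA-MB-436, and it had the most reads of all members there: without it the siPHF19 share was 0.905 of the siNT share, and with it 0.943. Per kilobase of exon and M reads, the siNT level was highest for PCNA in both lines, at 119.9 in MDA-MB-436, against 121 in BoM-1833, and lowest for GINS3 in MDA-MB-436 (2.55) and for E2F2 in BoM-1833 (1.09).

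Origin licensing and the MCM helicase formed the role with the most falls. Of its 10 genes, 6 fell in MDA-MB-436 (ORC6, MCM2, MCM3, MCM4, MCM6 and MCM7), which is 60% against 11.5% of all genes, with a median log2 fold change of -0.17. In BoM-1833 0 of 10 were called by DESeq2 or edgeR, 0 had an unadjusted p under 0.05, and the median was 0.0034. The counts by role that follow stand against the same shares of all genes called: 11.5% lower and 10.5% higher for MDA-MB-436, 5.72% lower and 5.21% higher for BoM-1833. With 5 to 10 genes a role, 1 gene is at least 10% of it. ORC6 (chr16:46689643-46698394, plus strand, GRCh38), the smallest subunit of the origin recognition complex, was at 872, 812 and 868 normalized counts in the MDA-MB-436 siNT libraries and at 630.1, 554 and 582 in the siPHF19 libraries. The groups were far apart, and each siPHF19 value was below the lowest siNT value. In the authors' deposited table, ORC6 fell in MDA-MB-436 (log2 fold change -0.53, SE 0.10, adjusted p = 6.01e-07). In BoM-1833 it was at 389.8, 311 and 337 in siNT and 283, 324 and 342 in siPHF19, with overlapping groups (log2 fold change -0.13, SE 0.13, adjusted p = 0.659, the authors' deposited table). ORC1, the largest subunit of the complex, had log2 fold changes of 0.025 and -0.030 (MDA-MB-436 first) in the authors' deposited tables and was called in neither.

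MCM3 (chr6:52264009-52284881, minus strand), a subunit of the helicase ring, was at 3744, 3489 and 3505 normalized counts in the MDA-MB-436 siNT libraries and at 2768, 2788 and 2746 after siPHF19. The siPHF19 values lay within a narrow band below all controls. The mean was 0.773 times that of the controls, and the authors' deposited table gave log2 fold change -0.37, SE 0.065, adjusted p = 3.10e-07. In BoM-1833, MCM3 was at 5021, 4833 and 4748 in siNT and 4686, 4885 and 4828 in siPHF19. These ranges overlapped (log2 fold change -0.021, SE 0.057, adjusted p = 0.905, the authors' deposited table). MCM7 (chr7:100092728-100101940, minus strand), another subunit of the ring, was at 7100.3, 6872 and 6795 in siNT and 5737, 5759 and 5831 in siPHF19 in MDA-MB-436, with no overlap. In the authors' deposited table it fell there (log2 fold change -0.26, SE 0.057, adjusted p = 6.52e-05), whereas in BoM-1833 it was at 3947, 3669 and 3557 in siNT and 3889, 3877 and 3928 in siPHF19 (log2 fold change 0.065, SE 0.062, adjusted p = 0.632, the authors' deposited table). MCM7 overlaps AP4M1 on the opposite strand, and the use of strand in counting is not given in the sources used here.

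The other ring subunits had log2 fold changes closer to 0. MCM2, MCM4 and MCM6 fell in MDA-MB-436 by 0.22, 0.17 and 0.17 on the log2 scale, with adjusted p of 0.00299, 0.0218 and 0.0364 in the authors' deposited table. Each of these 3 calls was lost without any 1 of siNT replicate 2 and siPHF19 replicates 1, 2 and 3 (adjusted p 0.0766 to 0.124 for MCM2, 0.165 to 0.262 for MCM4 and 0.0512 to 0.303 for MCM6, which was also lost without siNT replicate 1). MCM5, with a log2 fold change of -0.17 in MDA-MB-436 (adjusted p = 0.115 in the authors' deposited table), and the loader CDC6, with -0.15 (adjusted p = 0.108 there), did not pass, although all of their siPHF19 libraries were below the controls. CDT1, the partner of CDC6 in loading the ring, had a log2 fold change of 0.050 in MDA-MB-436, against 0.12 in BoM-1833, with overlapping groups in both. In BoM-1833 the 5 ring subunits other than MCM3 had log2 fold changes between -0.091 and 0.065 in the authors' deposited table, and CDC6 had a log2 fold change of 0.0051.

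**Figure D2:**
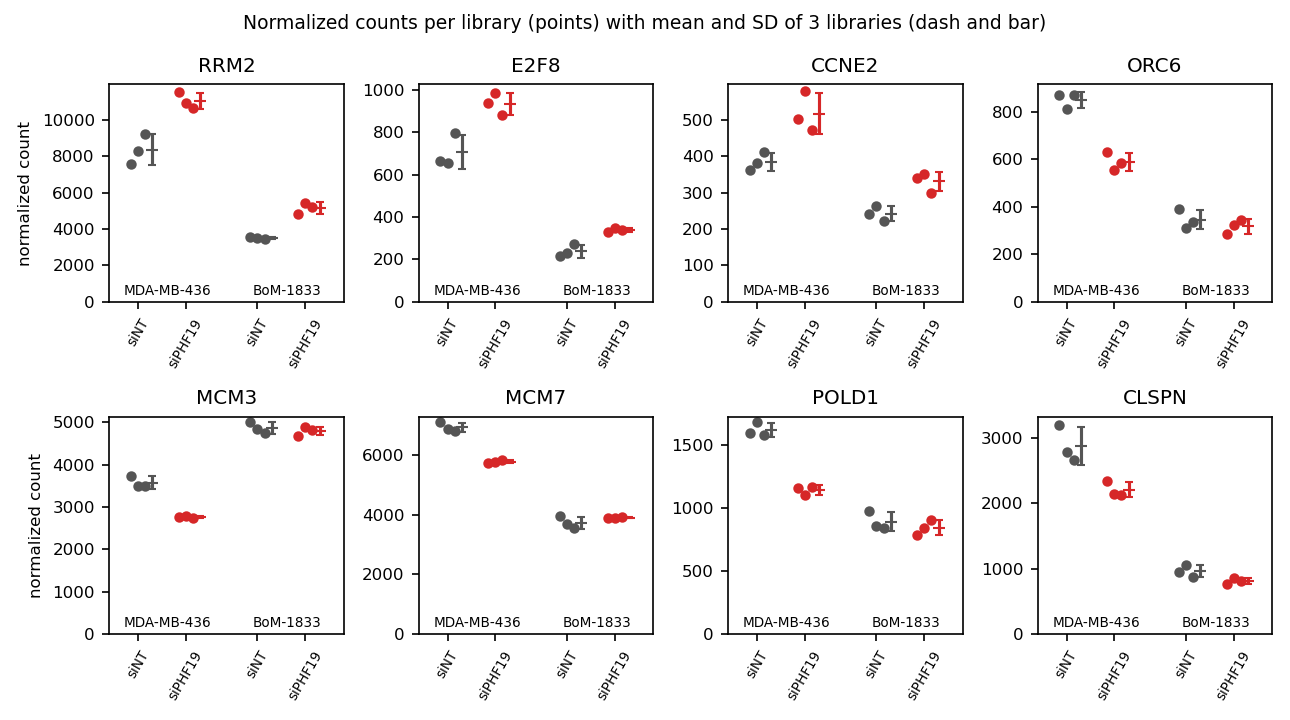
Normalized counts (vertical axes, each starting at 0) of 8 members in the siNT libraries (grey) and siPHF19 libraries (red) of MDA-MB-436 and BoM-1833 (horizontal axis). Points are single libraries and the dash with its bar is the mean and SD of 3; RRM2, E2F8 and CCNE2 are higher in all siPHF19 libraries of both lines, while ORC6, MCM3, MCM7 and POLD1 separate only in MDA-MB-436.

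Of 8 genes that activate the helicase, DBF4 rose in MDA-MB-436 (12.5%, against 10.5% of all genes, a share near the background). MCM10 and CDC45 fell there (25%, against 11.5%), and the median was -0.096. None was called in BoM-1833, where the median was 0.081, 1 had an unadjusted p under 0.05 and edgeR called 1. DBF4 (chr7:87876216-87909541, plus strand), the regulatory subunit that switches on the CDC7 kinase, was at 1414, 1421 and 1523 normalized counts in the MDA-MB-436 siNT libraries and 1689, 1669.8 and 1799 in the siPHF19 libraries. All siPHF19 values were above all controls, and the authors' deposited table gave log2 fold change 0.24, SE 0.076, adjusted p = 0.00955. The call was lost without any 1 of siNT replicate 2 and siPHF19 replicates 1, 2 and 3 (adjusted p 0.0756 to 0.164). The BoM-1833 values were 607, 573 and 576 in siNT and 645, 685 and 591 in siPHF19, with overlap (log2 fold change 0.13, SE 0.10, adjusted p = 0.508, the authors' deposited table). DBF4 overlaps SLC25A40 on the opposite strand and has an annotated pseudogene, so its reads may be shared.

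GINS1 (chr20:25407727-25452628, plus strand), a subunit of the GINS complex, was at 639, 593 and 545 in the BoM-1833 siNT libraries and at 692, 719 and 724 in the siPHF19 libraries. The groups did not overlap, and the authors' deposited table placed it just outside the threshold (log2 fold change 0.26, SE 0.10, adjusted p = 0.0561); edgeR called it higher. In MDA-MB-436 it was at 834, 797 and 824 in siNT and 904, 874 and 909 in siPHF19, also without overlap (log2 fold change 0.13, SE 0.083, adjusted p = 0.276, the authors' deposited table). MCM10, a scaffold of the early fork, fell by 0.27 in MDA-MB-436, and CDC45, part of the active helicase, fell by 0.29 (adjusted p = 0.013 and 0.0149 in the authors' deposited table). Both calls were lost without any 1 of siNT replicate 2 and siPHF19 replicates 1, 2 and 3 (adjusted p 0.0756 to 0.206 and 0.0841 to 0.153), and that of CDC45 also without siNT replicate 1. The kinase CDC7 had log2 fold changes of -0.019 and 0.050 (MDA-MB-436 first). The remaining GINS subunits had log2 fold changes of -0.17 (GINS2), -0.22 (GINS3) and 0.026 (GINS4) in MDA-MB-436, whereas BoM-1833 gave 0.067, -0.16 and 0.10, all uncalled in the authors' deposited tables.

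All 8 polymerase and primase genes had negative log2 fold changes in MDA-MB-436, with a median of -0.22, and 3 of them fell (POLD1, PRIM1 and POLA1). None was called in BoM-1833 by DESeq2 or edgeR, 2 were lower at an unadjusted p under 0.05, and the median was -0.077. POLD1 (chr19:50384204-50418016, plus strand), the catalytic subunit of polymerase delta, was at 1593, 1679.5 and 1582 normalized counts in the MDA-MB-436 siNT libraries and 1159, 1100.0 and 1168 in the siPHF19 libraries. The groups were well separated, and the authors' deposited table gave log2 fold change -0.50, SE 0.076, adjusted p = 1.54e-09. In BoM-1833 POLD1 was at 975, 858 and 840.5 in siNT and 789, 839 and 903 in siPHF19, and the groups overlapped (log2 fold change -0.081, SE 0.093, adjusted p = 0.707, the authors' deposited table). POLD1 overlaps the gene AC020909.1 on its own strand.

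PRIM1 (chr12:56731596-56752373, minus strand), the catalytic subunit of primase, was at 691, 673 and 703 in the MDA-MB-436 siNT libraries and 531, 543 and 556 after siPHF19. It fell with no overlap of the groups (log2 fold change -0.34, SE 0.092, adjusted p = 0.00199, the authors' deposited table), but the call was lost without siPHF19 replicate 1 or siPHF19 replicate 2 (adjusted p 0.055 to 0.0613). In BoM-1833 PRIM1 was at 398, 391 and 359 in siNT and 318, 342 and 317 in siPHF19, and every siPHF19 value was below the controls without passing the test (log2 fold change -0.23, SE 0.12, adjusted p = 0.23, the authors' deposited table). It overlaps HSD17B6 on the opposite strand and NACA on its own. PRIM2, the other primase subunit, was lower in every siPHF19 library of BoM-1833 (log2 fold change -0.24, SE 0.095, adjusted p = 0.0957, the authors' deposited table) and had a log2 fold change of -0.060 in MDA-MB-436. POLA1, the catalytic subunit of polymerase alpha, fell by 0.24 in MDA-MB-436 (adjusted p = 0.02, the authors' deposited table), a call lost without any 1 of siNT replicates 1 and 2 and siPHF19 replicates 1, 2 and 3 (adjusted p 0.0684 to 0.173). The accessory subunits POLA2, POLE2 and POLD3 and the catalytic subunit POLE had log2 fold changes of -0.046, -0.23, -0.19 and -0.22 in MDA-MB-436, whereas BoM-1833 gave 0.0068, -0.14, -0.069 and -0.072 (the authors' deposited tables), uncalled in both.

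The clamp, the clamp loader and the enzymes that finish Okazaki fragments were all on the same side of 0 in MDA-MB-436, but most did not pass the test. There all 7 were below 0 (median -0.22, all 7 at an unadjusted p under 0.05) and 1, RFC2, was called lower; edgeR called 0 of them. In BoM-1833 6 of 7 were above 0 (median 0.088), none was called by DESeq2 or edgeR, and 0 had an unadjusted p under 0.05. RFC2 (chr7:74231499-74254458, minus strand), a subunit of the clamp loader, was at 1636, 1488 and 1301 normalized counts in the MDA-MB-436 siNT libraries and 1243, 1211 and 1266 in the siPHF19 libraries. The controls were themselves spread from 1301 to 1636, and the call (log2 fold change -0.25, SE 0.10, adjusted p = 0.041, the authors' deposited table) was lost without any 1 of siNT replicates 1 and 2 and siPHF19 replicates 1, 2 and 3 (adjusted p 0.126 to 0.22). The BoM-1833 values were 914, 798 and 858 in siNT and 919, 960.1 and 897 in siPHF19 (log2 fold change 0.11, SE 0.087, adjusted p = 0.532, the authors' deposited table).

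LIG1 (chr19:48115445-48170603, minus strand), the ligase that joins Okazaki fragments, had the smallest adjusted p of the group in BoM-1833, where it was at 1292, 1206 and 1145 in siNT and 1338, 1378 and 1307 in siPHF19 (log2 fold change 0.14, SE 0.078, adjusted p = 0.285, the authors' deposited table). The groups did not overlap there, and in MDA-MB-436 they did not overlap in the opposite direction, at 1172, 1163 and 1071 in siNT and 1019, 1006 and 1012 in siPHF19 (log2 fold change -0.17, SE 0.081, adjusted p = 0.127, the authors' deposited table). PCNA, the sliding clamp, was at 3817, 3209 and 2923 in the MDA-MB-436 siNT libraries and 2785, 2909 and 2860.1 in siPHF19 (log2 fold change -0.22, SE 0.10, adjusted p = 0.0937, the authors' deposited table). FEN1, the nuclease that trims Okazaki flaps, was at 4620.4, 3863 and 3422 in siNT and 3248, 3278 and 3442 in siPHF19 (log2 fold change -0.26, SE 0.10, adjusted p = 0.056, the authors' deposited table). For both genes siNT replicate 1 was the highest and siNT replicate 3 the lowest control. The loader subunits RFC3, RFC4 and RFC5 had log2 fold changes of -0.18, -0.31 and -0.20 in MDA-MB-436, and PCNA, FEN1, RFC3, RFC4 and RFC5 had log2 fold changes of 0.088, -0.0087, 0.13, 0.056 and 0.065 in BoM-1833 (the authors' deposited tables).

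Nucleotide supply held 1 of the 3 genes that rose in both lines. RRM2 (chr2:10120698-10131419, plus strand), which with RRM1 forms the enzyme that makes deoxyribonucleotides, was at 7577, 8308 and 9248 normalized counts in the MDA-MB-436 siNT libraries and 11556, 10959.8 and 10668 in the siPHF19 libraries. In BoM-1833 it was at 3561, 3517 and 3463 in siNT and 4801, 5435 and 5214 in siPHF19. No siPHF19 value overlapped a control in either line, and the means were 1.32 and 1.47 times those of siNT. In the authors' deposited tables it rose in MDA-MB-436 (log2 fold change 0.40, SE 0.083, adjusted p = 2.17e-05) as well as BoM-1833 (log2 fold change 0.55, SE 0.063, adjusted p = 8.72e-16), and both calls held under all 12 alternative fits (other software, scaling and filters, a replicate block, and each library left out). RRM2 has 3 annotated pseudogenes, and how reads shared with them were assigned is not given in the sources used here.

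RRM1, the large subunit of the same enzyme, did not pass the test: it was at 3391, 3289 and 3293 in siNT and 3073, 2928 and 2996 in siPHF19 in MDA-MB-436 (log2 fold change -0.15, SE 0.063, adjusted p = 0.0705, the authors' deposited table), and its log2 fold change was -0.032 in BoM-1833. DUT, which keeps uracil out of DNA, fell in MDA-MB-436 (log2 fold change -0.26, SE 0.087, adjusted p = 0.0171, the authors' deposited table), a call lost without any 1 of siNT replicates 1 and 2 and siPHF19 replicates 1, 2 and 3 (adjusted p 0.0531 to 0.215). TYMS, thymidylate synthase, and TK1, thymidine kinase, had log2 fold changes of -0.10 and -0.15 in MDA-MB-436. The BoM-1833 log2 fold changes were 0.11 for TYMS, 0.20 for TK1 and 0.070 for DUT (the authors' deposited tables). Of the 5 genes, 1 rose and 1 fell in MDA-MB-436 (median -0.15), and 1 rose in BoM-1833 (median 0.11).

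Of the 6 genes of chromatin assembly and maintenance methylation, 3 fell in MDA-MB-436 (CHAF1A, CHAF1B and UHRF1) and 1 rose in BoM-1833 (ASF1B), with medians of -0.20 and -0.024. CHAF1B (chr21:36385378-36419015, plus strand), a subunit of the chromatin assembly factor that places histones behind the fork, was at 1253, 1160.3 and 1146 normalized counts in the MDA-MB-436 siNT libraries and 914, 986 and 966 in the siPHF19 libraries. It fell without overlap (log2 fold change -0.31, SE 0.084, adjusted p = 0.00186, the authors' deposited table), and the call was lost without siPHF19 replicate 1 (adjusted p 0.0736). In BoM-1833 it was at 345, 324 and 329 in siNT and 316, 287 and 370.0 in siPHF19, with overlap (log2 fold change -0.039, SE 0.13, adjusted p = 0.92, the authors' deposited table). CHAF1B overlaps MORC3. CHAF1A, its partner, fell by 0.27, and UHRF1, which guides maintenance methylation, fell by 0.22 in MDA-MB-436 (adjusted p = 0.0449 and 0.0405, the authors' deposited table). The CHAF1A call was lost without any library but siNT replicate 3 (adjusted p 0.135 to 0.208) and the UHRF1 call without any but siNT replicate 1 (adjusted p 0.0595 to 0.275).

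ASF1B (chr19:14119509-14136956, minus strand), a histone chaperone that feeds the assembly factor, was named after its values were seen, as the only member called in BoM-1833 alone. It was at 1515, 1453 and 1459 in the BoM-1833 siNT libraries and 1622, 1848 and 1828 in the siPHF19 libraries, and it rose without overlap (log2 fold change 0.26, SE 0.076, adjusted p = 0.00923, the authors' deposited table). The call was lost without any 1 of siNT replicates 2 and 3 and siPHF19 replicates 2 and 3 (adjusted p 0.0514 to 0.163). In MDA-MB-436 its controls were spread from 749 to 978 and enclosed the siPHF19 values of 806, 795 and 839 (log2 fold change -0.086, SE 0.11, adjusted p = 0.633, the authors' deposited table). SLBP, which binds the stem-loop of histone mRNAs, had log2 fold changes of -0.18 and 0.13 (MDA-MB-436 first), and DNMT1, the maintenance methyltransferase, of 0.048 and -0.0084. UHRF1 and CHAF1A had log2 fold changes of -0.12 and -0.057 in BoM-1833 (the authors' deposited table).

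Among the E2F factors, the cyclins E and the checkpoint mediator claspin, 2 of 7 rose in both lines and 1 fell in MDA-MB-436, with medians of 0.045 in MDA-MB-436, against 0.14 in BoM-1833. E2F8 (chr11:19224063-19241620, minus strand), a repressor of E2F targets, was at 663, 656 and 797 normalized counts in the MDA-MB-436 siNT libraries and 936, 986 and 879.8 in the siPHF19 libraries. In BoM-1833 it was at 214, 229 and 272 in siNT and 328, 349 and 338 in siPHF19. All siPHF19 libraries were above all controls in both lines. The authors' deposited tables gave log2 fold change 0.41, SE 0.10, adjusted p = 0.00103 for MDA-MB-436, and log2 fold change 0.51, SE 0.13, adjusted p = 0.0031 for BoM-1833, and the BoM-1833 call was lost without siPHF19 replicate 2 (adjusted p 0.0599).

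CCNE2, a cyclin E that activates CDK2 at the start of S phase, was at 361, 381 and 412 in the MDA-MB-436 siNT libraries and 501, 579.8 and 472 after siPHF19. The BoM-1833 values were 241, 263 and 223 in siNT and 339.7, 353 and 300.3 in siPHF19. Again no siPHF19 value overlapped a control. The authors' deposited tables gave log2 fold change 0.43, SE 0.12, adjusted p = 0.00289 for MDA-MB-436, and log2 fold change 0.45, SE 0.13, adjusted p = 0.0103 for BoM-1833. The MDA-MB-436 call was lost without siPHF19 replicate 2 (adjusted p 0.115), and the BoM-1833 call without any 1 of siNT replicate 3 and siPHF19 replicates 1 and 2 (adjusted p 0.0977 to 0.15). CCNE2 overlaps INTS8 and NDUFAF6 on the opposite strand. Its paralog CCNE1 had a log2 fold change of -0.15 in MDA-MB-436, against 0.10 in BoM-1833, uncalled in the authors' deposited tables.

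CLSPN (chr1:35720218-35769967, minus strand) encodes claspin, which links stalled forks to the checkpoint kinase CHEK1. It was at 3205, 2782 and 2657 in the MDA-MB-436 siNT libraries and 2349, 2150.2 and 2133 in the siPHF19 libraries, and at 945, 1059.6 and 879 in siNT and 761, 849 and 805 in siPHF19 in BoM-1833. The groups were separate in both lines. It fell in MDA-MB-436 (log2 fold change -0.38, SE 0.089, adjusted p = 0.000229, the authors' deposited table) under all 12 alternatives and narrowly missed the threshold in BoM-1833 (log2 fold change -0.26, SE 0.094, adjusted p = 0.0551, the authors' deposited table). The activators E2F1 and E2F2 had log2 fold changes of 0.018 and 0.045 in MDA-MB-436. Their BoM-1833 log2 fold changes were 0.14 and 0.35. E2F7, the closest relative of E2F8, had log2 fold changes of 0.095 and -0.17 (MDA-MB-436 first) in the authors' deposited tables, and was not called in either.

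The lines were then compared for each gene by a z test on the difference of the deposited log2 fold changes, adjusted over the 12290 genes tested in both lines; the lines share no library. MCM3, MCM7 and POLD1 differed, each lower in MDA-MB-436 than in BoM-1833. The 3 were 5.88% of the members, against 4.89% of all genes, so this share was near the background. The difference was -0.35 (SE 0.086, adjusted p = 0.00262) for MCM3, -0.33 (SE 0.084, adjusted p = 0.00466) for MCM7 and -0.42 (SE 0.12, adjusted p = 0.0147) for POLD1. The direction was much more common than the calls: 46 of 51 members (90.2%) had a lower log2 fold change in MDA-MB-436, against 50.1% of all genes tested in both lines, and the median difference was -0.19 over the members and -0.00076 over all genes. For RRM2, E2F8 and CCNE2, which rose in both lines, the differences were -0.15 (SE 0.10, adjusted p = 0.518), -0.10 (SE 0.17, adjusted p = 0.844) and -0.018 (SE 0.18, adjusted p = 0.98). These 3 were 5.88% of the members, against 2.55% of the genes tested in both lines that were called higher in both.

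The count of members that differed rested on single libraries. It was 0 without MDA-MB-436 siPHF19 replicate 1, 1 without MDA-MB-436 siNT replicate 2 or MDA-MB-436 siPHF19 replicate 2, 5 without MDA-MB-436 siNT replicate 1 or BoM-1833 siPHF19 replicate 1, 12 without MDA-MB-436 siNT replicate 3 and 13 without BoM-1833 siNT replicate 1. The count over all genes also shifted, from 601 to 301 without MDA-MB-436 siPHF19 replicate 1. It was 327 without MDA-MB-436 siNT replicate 2 and 321 without MDA-MB-436 siPHF19 replicate 2. Without MDA-MB-436 siNT replicate 1 it was 516, and without BoM-1833 siPHF19 replicate 1 it was 482. The largest counts were 1056 without MDA-MB-436 siNT replicate 3 and 997 without BoM-1833 siNT replicate 1. MCM3 lost its call without MDA-MB-436 siPHF19 replicate 1 (adjusted p 0.0506). MCM7 lost it without MDA-MB-436 siNT replicate 2, siPHF19 replicate 1 or siPHF19 replicate 2 (adjusted p 0.0621, 0.0761 and 0.0686). POLD1 lost it without 8 of the 12 libraries, and its adjusted p lay between 0.00155 and 0.291 over all 16 alternatives. As a description across genes, which are not independent replicates, the members' log2 fold changes in the lines had Pearson's r = 0.682 and Spearman's rho = 0.517 over 51 genes.

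**Figure D3:**
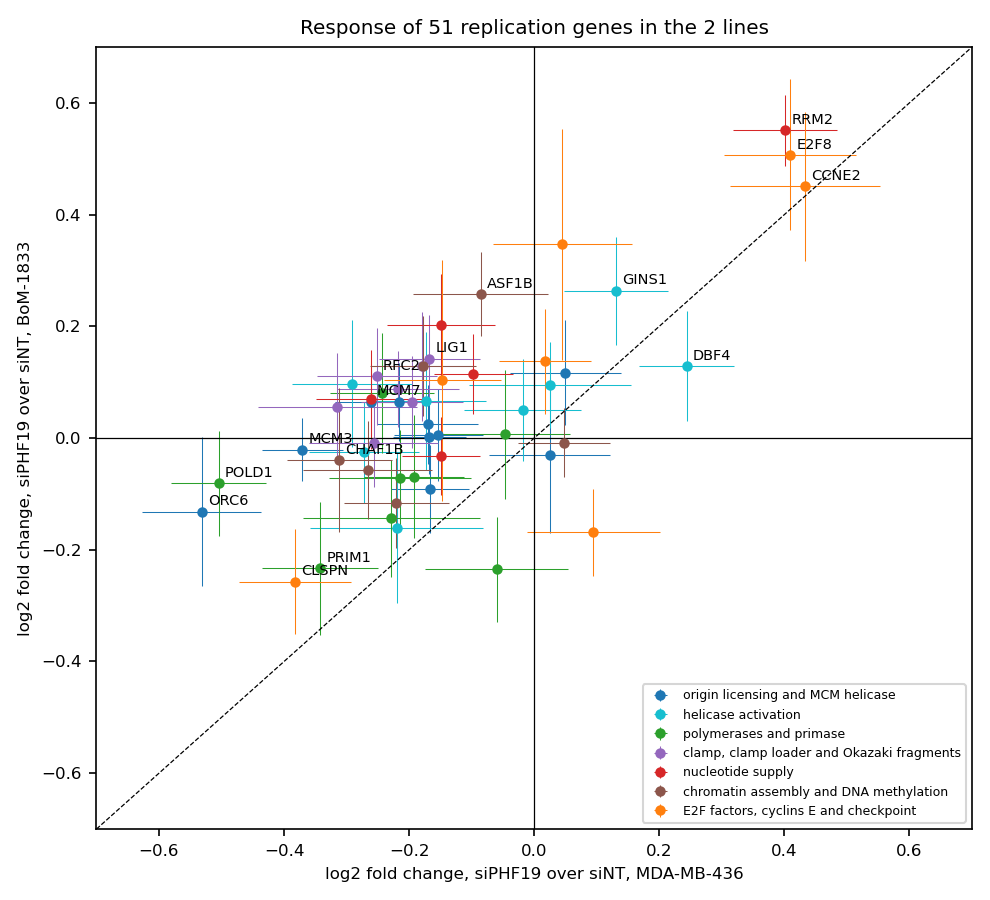
Log2 fold change of siPHF19 over siNT of the 51 genes in MDA-MB-436 (horizontal axis) and BoM-1833 (vertical axis), from the authors' deposited tables, with bars of 1 standard error; colours give the role and the dashed line marks equal values. Most points (46 of 51) lie above the dashed line, and RRM2, E2F8 and CCNE2 lie at the upper right.

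Genes of the same pathways outside the 51 were counted in 6 lists. Of 34 other replisome and licensing genes, 10 fell in MDA-MB-436 (29.4%, against 11.5% of all genes; median -0.16) and 0 rose by DESeq2, by edgeR or at an unadjusted p under 0.05 (10.5% of all genes rose). In BoM-1833 2 fell (5.88%, against 5.72% of all genes) and 1 rose (2.94%, against 5.21%), shares near or under the background. RFC1, the large subunit of the clamp loader, fell in both lines, by 0.34 and 0.25 on the log2 scale of the authors' deposited tables, while its partners among the members did not pass in BoM-1833. SUPT16H, a subunit of the histone chaperone FACT that travels with the fork, had the largest fall of the list. It was at 10092, 8476 and 8506 normalized counts in the MDA-MB-436 siNT libraries and 4194, 4064 and 3940.5 in siPHF19, and at 5554, 5892 and 5542 in siNT and 3526, 3679 and 3636 in siPHF19 in BoM-1833. The groups were far apart in both lines (log2 fold change -1.15, SE 0.083, adjusted p = 1.07e-40 for MDA-MB-436, and log2 fold change -0.65, SE 0.058, adjusted p = 9.87e-26 for BoM-1833, the authors' deposited tables). POLE3, an accessory subunit of polymerase epsilon, fell in MDA-MB-436 (log2 fold change -0.39), and DSCC1, part of an alternative clamp loader, rose in BoM-1833 (log2 fold change 0.35) in the authors' deposited tables. The BoM-1833 call of RFC1 was lost without any 1 of siNT replicate 3 and siPHF19 replicates 1 and 3 (adjusted p 0.0515 to 0.0622), and that of DSCC1 without any library but siNT replicate 1 (adjusted p 0.0584 to 0.279).

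Of 24 other genes of nucleotide supply, 6 fell in MDA-MB-436 (25%, against 11.5% of all genes) and 2 rose (8.33%, against 10.5%). The BoM-1833 counts were 3 that fell (12.5%, against 5.72%) and 1 that rose (4.17%, against 5.21%), so the rises were under the background in both lines. The folate and purine enzymes MTHFD2 and GART fell in both lines, MTHFD2 by 0.54 and 0.32 and GART by 0.35 and 0.27 on the log2 scale (MDA-MB-436 first, the authors' deposited tables). SAMHD1, which degrades deoxyribonucleotides, rose in both, by 0.29 and 0.33 on the log2 scale, as RRM2 did. Of 10 genes of the replication stress checkpoint, 2 rose and 2 fell in MDA-MB-436 (20% each, against 10.5% and 11.5% of all genes) and 1 rose and 1 fell in BoM-1833 (10% each, against 5.21% and 5.72%). The kinase WEE1, which holds back CDK1, rose in both lines (log2 fold changes 0.65 and 0.54), and CHEK1, the kinase that claspin serves, fell in both (log2 fold changes -0.47 and -0.27, the authors' deposited tables). Calls lost without 1 library were that of MTHFD2 in BoM-1833 (siPHF19 replicate 1, adjusted p 0.119), of SAMHD1 in MDA-MB-436 (siNT replicate 2, siPHF19 replicate 1 or 2, adjusted p 0.135 to 0.205) and of CHEK1 in BoM-1833 (siNT replicate 2, siPHF19 replicate 1 or 3, adjusted p 0.0846 to 0.148).

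Of 22 genes of E2F, RB and G1/S control, 6 rose in MDA-MB-436 (27.3%, against 10.5% of all genes; median 0.075) and 4 in BoM-1833 (18.2%, against 5.21%; median 0.089). By DESeq2 0 fell in either line (11.5% and 5.72% of all genes, MDA-MB-436 first); at an unadjusted p under 0.05, 1 was lower in each line, and edgeR also called 0 lower. CCNA2, cyclin A, rose in both (log2 fold changes 0.23 and 0.36). CDK6, E2F5 and LIN54 rose in MDA-MB-436 (log2 fold changes 0.43, 0.51 and 0.36), and MYBL2, an E2F target and partner of the MuvB complex, rose in BoM-1833 (log2 fold change 0.44) in the authors' deposited tables. Of 10 genes of histone supply, 1 rose and 3 fell in MDA-MB-436 (10% and 30%, against 10.5% and 11.5% of all genes) and 1 rose in BoM-1833 (10%, against 5.21%). H2AFX, a histone variant, rose in both lines (log2 fold changes 0.24 and 0.35, the authors' deposited tables). In MDA-MB-436 the call of CCNA2 was lost without any 1 of siNT replicate 2 and siPHF19 replicates 1, 2 and 3 (adjusted p 0.0864 to 0.17), that of E2F5 without siNT replicate 2 (adjusted p 0.0614), that of LIN54 without siPHF19 replicate 1 (adjusted p 0.0609), and the H2AFX call without any library but siNT replicate 1 (adjusted p 0.0731 to 0.267). The BoM-1833 call of H2AFX was lost without siPHF19 replicate 2 (adjusted p 0.0735).

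Genes of G2 and mitosis, which peak after S phase, were set beside the members for the cell cycle as a whole. Of 34, 4 rose (11.8%, against 10.5% of all genes) and 3 fell (8.82%, against 11.5%) in MDA-MB-436, shares near the background (median -0.037). In BoM-1833 5 rose (14.7%, against 5.21%) and 0 fell by DESeq2 (5.72% of all genes), with a median of 0.070; 1 was lower at an unadjusted p under 0.05, and edgeR called 4 higher and 1 lower. FOXM1, the factor that drives mitotic genes, rose in both lines (log2 fold changes 0.22 and 0.25), as did the mitotic kinesin KIF20A (log2 fold changes 0.35 and 0.41). HMMR, BIRC5 and AURKB fell in MDA-MB-436 (log2 fold changes -0.50, -0.49 and -0.37) and had log2 fold changes of -0.34, 0.090 and -0.089 in BoM-1833 (the authors' deposited tables). The MDA-MB-436 call of FOXM1 was lost without any 1 of siNT replicate 2 and siPHF19 replicates 1, 2 and 3 (adjusted p 0.0996 to 0.137), and that of KIF20A without siPHF19 replicate 1 (adjusted p 0.0837). Whether a change in the share of cells in S phase accompanied these values was not tested.

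**Figure D4:**
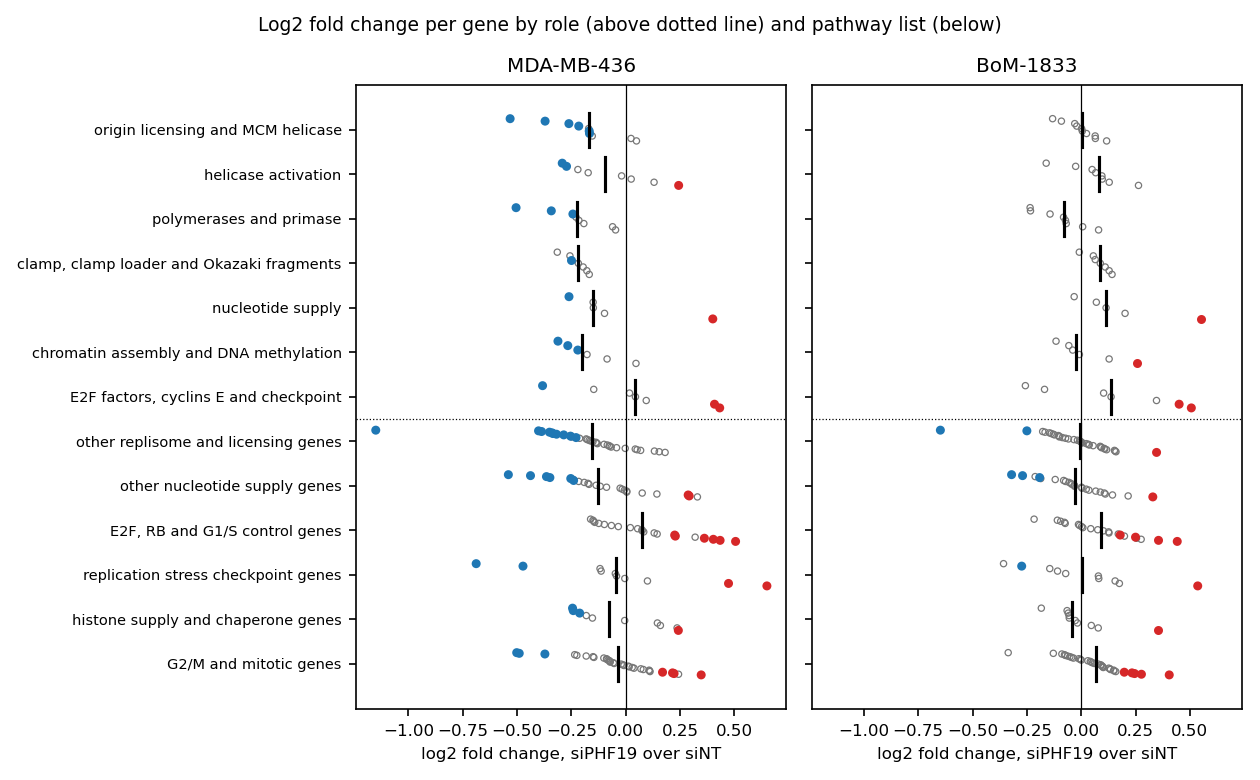
Log2 fold change of siPHF19 over siNT per gene (horizontal axes, same scale) in MDA-MB-436 (left) and BoM-1833 (right), grouped by the 7 roles of the members (above the dotted line) and the 6 pathway lists (below it). Filled blue points were called lower, filled red points called higher and open points neither, and the black bar is the median of each group, which is below 0 in MDA-MB-436 for every role but E2F factors, cyclins E and checkpoint.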

How the data were processed

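RNA from siNT and siPHF19 cells of 2 lines was measured in 12 libraries; groups and replicate numbers came from the sample titles. Per the submitters' processing notes, the tools named are STAR, RSEM 1.3.1 and DESeq2 1.46.0 and the build hg38; annotation and strand use are not given in the sources used here. The authors deposited 1 DESeq2 table per line. The deposited library values are a signal, which proved to be reads divided by 1 size factor per library; the log2 fold changes and standard errors (log2), Wald statistic (a score), p-values and adjusted p-values are the authors' own and were the main test. All library values were whole reads within 0.01 reads, 100% in each of 12 libraries, and reads were recovered from them. DESeq2 1.42.0 and edgeR 4.0.16 (R 4.3.3) were run on these reads as alternatives, with total-read scaling, no low-count filter, a mean of at least 100 normalized counts, a replicate block and each library left out. edgeR called 20 members in MDA-MB-436, against 5 in BoM-1833, and 3422 and 1527 of all genes (MDA-MB-436 first). Lines were compared by a z test on the deposited values (scipy 1.17.1). The fits were tested on simulated data. Reads carry no molecular identifiers. The number of per-sample columns of no sample was 0.

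Members and lists were chosen with earlier results of these data known. Values per library are given for members called in both lines, called in 1 line with an absolute log2 fold change of at least 0.3, or differing between lines, and otherwise for the member with the smallest adjusted p of its role in each line. From each pathway list, up to 3 called genes per line with the smallest adjusted p could be named. Gene coordinates are from GENCODE release 29 (GRCh38), exon lengths are merged over transcripts, and promoters are from RefSeq. The marker lists were for mesenchymal-type breast tumour lines, luminal breast cells, leukocytes and endothelial cells. Summed over 7 luminal markers, the libraries held 1030.4 to 1315 normalized counts for MDA-MB-436, against 6551 to 7459 for BoM-1833. The 5 leukocyte markers summed to 104 to 338 and the 4 endothelial markers to 52.3 to 578 over all libraries.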

Additional observations from a re-analysis of the deposited data

Results flagged for a closer look

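Of the members, 3 responded differently in the lines by the test of the difference itself (z test on the deposited log2 fold changes, Benjamini-Hochberg adjusted over all genes tested in both lines). The log2 fold change in MDA-MB-436 minus that in BoM-1833 was -0.35 (SE 0.086, adjusted p = 0.00262) for MCM3, -0.33 (SE 0.084, adjusted p = 0.00466) for MCM7 and -0.42 (SE 0.12, adjusted p = 0.0147) for POLD1. The 3 were 5.88% of the members, against 4.89% of all genes tested in both lines, a share near the background, and 0 differed without MDA-MB-436 siPHF19 replicate 1. Without that library 301 of all genes differed, against 601 with it. Samples far from their group could not be looked for, since each group has 3 libraries.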

How the results depend on the processing

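The 25 calls of members (21 in MDA-MB-436, against 4 in BoM-1833) were each refitted under 12 alternatives. Of 300 values, 209 kept direction and side of the threshold, 91 kept direction and missed the threshold, and 0 reversed; 8 calls held under every alternative (RRM2 in BoM-1833, and ORC6, MCM3, MCM7, POLD1, RRM2, E2F8 and CLSPN in MDA-MB-436). With a replicate block, the members called numbered 7 (MDA-MB-436) and 1 (BoM-1833), and 0 differed between lines, while calls over all genes went from 3143 to 1610 (MDA-MB-436) and from 1411 to 610 (BoM-1833). Over all genes, 190 differed between lines with the block, against 601 without it. Same-numbered samples did not deviate together (correlations from -0.31 to 0.039), so these values gave no sign of pairing by number. Between differently numbered samples the correlations ran from -0.19 to 0.33. The highest in each line was that of siNT replicate 3 with siPHF19 replicate 1 (0.27 in MDA-MB-436, 0.33 in BoM-1833). These correlations cannot show how the samples were prepared. Leaving out 1 library gave 8 to 25 members called (MDA-MB-436), 1 to 9 (BoM-1833) and 0 to 13 that differed. Over all genes, 1767 to 3801 were then called in MDA-MB-436, 746 to 2046 in BoM-1833, and 301 to 1056 differed between lines. An interaction term over all 12 libraries gave 7 members that differed with DESeq2 and 4 with edgeR. Over all genes it gave 901 with DESeq2 and 673 with edgeR, against 601 by the z test. The median in MDA-MB-436 was -0.15 with total-read scaling, which set the median of all genes to 0.020, and between -0.18 and -0.15 without 1 library. The share of reads in members, siPHF19 over siNT in MDA-MB-436, was 0.943, and 0.905 without RRM2. The mean over members of log2 normalized counts, which is not a share of reads, gave a ratio of 0.913. Only uncalled values changed sign: without 1 library each, MCM3 in BoM-1833 ranged from -0.039 to 0.0032, CHAF1B in BoM-1833 from -0.14 to 0.040 and ASF1B in MDA-MB-436 from -0.17 to 0.0091, positive without siNT replicate 1, siPHF19 replicate 2 and siNT replicate 3, in that order. The cause of these shifts was not tested, apart from the smaller number of samples when a library is left out.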
